A study of Mus musculus with 8 samples.

Results

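The interval on mouse chromosome 15 from 57600000 to 84500000 is a region to which scWAT mass, the weight of the subcutaneous white fat, was linked when the strains NZO and B6 were crossed. Its genes were read in liver. A gene counted as a member when its probe lay inside these limits on the mm9 coordinates of the array, which gave 405 of the 34778 genes on the array. The Cyp2d genes, the numbered Zfp genes, the lincRNA probes and a few single genes were left out, which removed 326 of the 849 probes inside the limits. The interval was selected on the contrast of NZO and B6 in these same arrays, since a larger share of its genes was higher in NZO liver than elsewhere in the genome. The differences of its members are therefore given as a description, and no test over the members is made.

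NZO/HiBomDife is an inbred mouse strain with polygenic obesity and susceptibility to diabetes, and C57BL/6 (B6) is the lean, diabetes-resistant strain it was compared with. Liver RNA came from 4 male NZO mice (numbers 003, 007, 009 and 011) and 4 male B6 mice (numbers 009, 010, 011 and 015), all 6 weeks old and on a diet with 45% fat. Each mouse gave 1 one-colour Agilent array, and the strains differ across their whole genomes, so that a difference between them cannot be tied to the interval itself. All levels below are the log2 signal of a probe relative to the 75th percentile of its array, on which a difference of 1 is a doubling. The signal of an array at this percentile ranged from 119 to 159, and 50.4% to 60.1% of the spots were well above background.

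All 5 hepatocyte markers were above background on all 8 arrays, with albumin (Alb) at 11.21 ± 0.02 (SD, n = 4) in NZO and 10.94 ± 0.23 in B6. The markers of other cells were not level between the mice. Summed over 4 skeletal muscle markers, of which 0 were above background on every array, the level was 4.15 in NZO 007 and between -2.88 and -1.72 in the other NZO mice, against -1.34 to 2.51 in B6. Myh4 alone was at 2.86 in NZO 007, at -4.77 to -2.81 in the other NZO mice and at -2.37 to 1.66 in B6. The summed level of 4 red blood cell markers ranged from 8.20 to 8.88 in NZO and from 7.28 to 7.70 in B6, and 2 of the 4 were called higher in NZO, Hba-a1 by 1.01 and Alas2 by 0.90. Of 6 adipocyte markers, Adipoq, Plin1 and Lep were above background on no array, and 0 were called. Their summed level ranged from 9.14 to 9.33 in NZO and from 8.68 to 8.91 in B6. Car3, which gave 0.47, carried nearly all of this sum, so that it says little of the other markers. Fabp4 went the other way, at -0.30, and Cidec gave 0.42. Over 6 markers of the exocrine pancreas, 4 of them above background on no array, it ranged from 0.45 to 1.198 in NZO and from 0.37 to 0.81 in B6. The part of these cells in the differences below was not tested. In whole tissue, more cells of a type and more RNA per cell cannot be told apart.

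A QTL interval holds many genes, few of which need bear on the trait. The genes here range from housekeeping enzymes to families that lie side by side as copies of each other. The Ly6 genes encode small surface proteins held in the membrane by a lipid anchor; Ly6a, also known as Sca-1, and Ly6c1 mark blood stem cells, leukocytes and endothelium and respond to interferon. The apolipoprotein L genes form another cluster, and several of them respond to interferon as well. Other members act in fat metabolism, such as Dgat1, which makes triglycerides, Srebf2, the transcription factor of cholesterol synthesis, and Pnpla3, a lipid droplet protein known for its link to fatty liver in humans.

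Of the 405 members, 285 had a signal well above background in every mouse of NZO, of B6 or of both and could be compared, 11 of them through NZO alone and 22 through B6 alone. Another 71 members were above background on no array. A gene was called when limma's adjusted p, taken over all 20134 genes of the array that could be compared, was at most 0.05 and the log2 difference at least 0.7 in either direction. By this rule 27 members were higher in NZO liver, 9.47% of those compared, where 4.45% of all genes were called higher. Of the 27, 16 were above background on all 8 arrays and 11 were compared through NZO alone, as were 11 members in all. The count fell to 15 under normexp background correction and to 14 once the slide was a term of the fit. Only 1 slide held both strains, so the strain difference in that fit rests on its mice alone, NZO 003, B6 010 and B6 015. Shares over all genes are given here for the main fit only. In the other direction 12 members were lower, 4.21% of those compared, where 4.99% of all genes were called lower. Of the 12, 8 were above background on all 8 arrays and 4 were compared through B6 alone, as were 22 members in all. At the limits on p and fold of the study's methods, read here with limma's unadjusted p, 35 members were higher and 15 lower, beside 5.25% and 6.57% of all genes. These counts became 16 and 8 under normexp background correction, and the lower one 23 with the slide in the fit. In none of the 39 called genes did the strains overlap. Their direction within the 1 slide that held both strains and within each of the 2 scan days was thereby fixed and is no check. The call rule itself favours genes whose strains do not overlap. The share without overlap over all genes is not given here, so this is not read as a trait of the interval.

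As a whole the members lay close to the other genes. Their median log2 difference between NZO and B6 was 0.01, against 0.03 over all genes compared, with 150 members above 0 and 135 below. In 107 members the strains lay within 0.2 of each other. The median SD among the mice was 0.18 in NZO and 0.17 in B6. The genes just inside the call rule were Mfsd3 (0.73) and Anxa13 (-0.73), and those just outside were Macroh2a3 (-0.70) and Nrbp2 (-0.69).

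**Figure D1:**
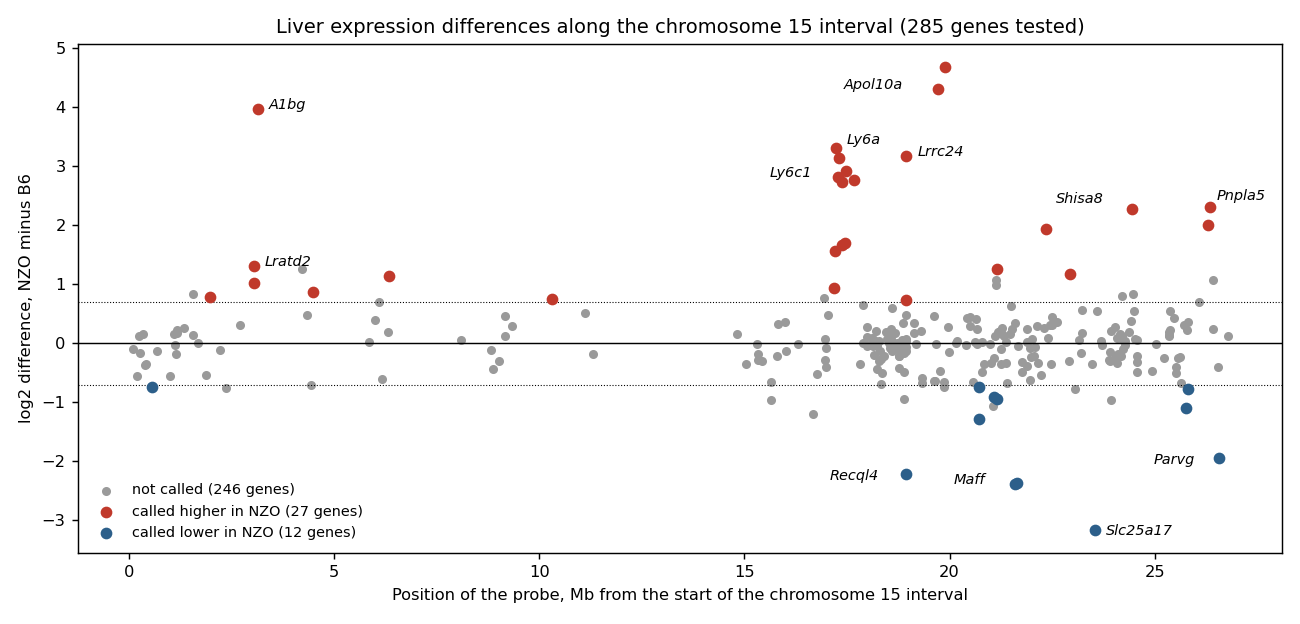
The log2 difference between NZO and B6 liver (vertical axis) of the 285 members compared is plotted against the distance of their probe from the start of the interval in Mb (horizontal axis); dotted lines mark 0.7 and -0.7. Red points are the 27 genes called higher, blue points the 12 called lower, and 3 red points whose B6 level was at background (A1bg, A_55_P1968673 and NAP101442-1) stand at their measured difference; a column of red points rises near 17 Mb.

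Along the interval, the called genes were unevenly placed. Between 16 and 18 Mb from its start, 10 of the 26 genes compared were higher in NZO and 0 were lower, with a median log2 difference of 0.37; over all genes 4.45% were called higher and 4.99% lower. All 10 lay within 0.47 Mb, between 74789592 and 75261818 (mm9). The stretch has 17 members; 7 were too dim to be compared, and 3 of the 10 were compared through NZO alone. It holds part of the Ly6 cluster, and its limits were set after the values were seen. Between 20 and 22 Mb, 6 of 51 genes were lower and 1 was higher, with a median log2 difference of -0.0026, and 3 of the 6 (Il2rb, Maff and LOC101055922) were compared through B6 alone. At the ends of the interval the nearest genes inside it were Derl1 (-0.09) and Tbc1d31 (-0.55) at its start and Parvg (-1.94) and Rtl6 (0.12) at its end. The nearest genes compared outside it were Sntb1 (0.20, probe at 55623590) and Has2os (0.60, at 56525956) before its start and Prr5 (-0.23) and Arhgap8 (-0.24) after its end, none of them called.

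Upstream sequences are shown for the 4 called genes with the largest differences that were above background on all arrays and had an entry in RefSeq's promoter table, since their levels set the strains furthest apart. Each run holds the 250 bases before the transcript's start on the GRCm38.p6 reference, 5′ to 3′ on the gene's strand. Capitals mark matches, on either strand, to TATAAA (the TATA box), to CCAAT as bound by NF-Y, to TTCNNNGAA as in STAT sites and to CACGTG, an E-box. The Ly6c1 run is chr15:75048838-75049087 (minus strand), that of Ly6g chr15:75155011-75155260 (plus), that of Apol10a chr15:77476797-77477046 (plus) and that of Slc25a17 chr15:81360766-81361015 (minus).
Ly6c1: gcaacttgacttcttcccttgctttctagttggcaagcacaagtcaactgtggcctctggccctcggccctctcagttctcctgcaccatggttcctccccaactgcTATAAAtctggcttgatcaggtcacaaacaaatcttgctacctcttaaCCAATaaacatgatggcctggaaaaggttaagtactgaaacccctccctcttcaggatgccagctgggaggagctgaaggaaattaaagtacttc
Ly6g: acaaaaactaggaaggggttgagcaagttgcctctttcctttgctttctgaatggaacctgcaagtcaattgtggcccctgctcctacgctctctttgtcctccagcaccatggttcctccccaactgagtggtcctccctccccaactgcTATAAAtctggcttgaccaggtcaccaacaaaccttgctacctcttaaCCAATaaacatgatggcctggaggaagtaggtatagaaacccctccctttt
Apol10a: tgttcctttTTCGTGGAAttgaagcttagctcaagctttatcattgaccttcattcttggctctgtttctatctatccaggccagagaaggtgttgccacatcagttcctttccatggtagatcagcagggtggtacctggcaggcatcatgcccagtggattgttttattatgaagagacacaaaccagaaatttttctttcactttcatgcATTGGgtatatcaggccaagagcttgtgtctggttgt
Slc25a17: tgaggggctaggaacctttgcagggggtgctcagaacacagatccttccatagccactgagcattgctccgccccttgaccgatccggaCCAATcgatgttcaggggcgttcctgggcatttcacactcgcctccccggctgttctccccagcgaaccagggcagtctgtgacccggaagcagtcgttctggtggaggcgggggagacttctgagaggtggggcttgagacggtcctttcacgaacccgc

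The Ly6c1 and Ly6g runs were alike, with 175 identical bases over 230 aligned columns (76.1%), and both held the TATA box letters and, at the same spacing after them, CCAAT. The former began 143 bases before the start used for Ly6c1 and 99 bases before that used for Ly6g. RefSeq's promoter table has 2 entries for each of these genes, and the distances hold for the entry shown. The starts used for Ly6c1 and Apol10a lie inside the limits of these genes on GRCm38, so their runs overlap those limits. Over all 32851 entries of the table, 12.4% held TATAAA in the same window, 33.8% held CCAAT, 7.02% held TTCNNNGAA and 6.02% held CACGTG. Each of the 4 runs shown held CCAAT, the Apol10a run alone held TTCNNNGAA, and 0 held CACGTG. These are matches of letters in the reference strain, and NZO sequence was not examined.

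Ly6a had the largest difference of the Ly6 genes proper. Its level was 4.45, 5.51, 5.21 and 4.54 in NZO 003, 007, 009 and 011, and 1.85, 1.78, 1.13 and 1.69 in B6 009, 010, 011 and 015. Every NZO mouse thus lay far above every B6 mouse, and the log2 difference was 3.32 (standard error 0.27). The gene lies on chromosome 15 of GRCm38 from 74994877 to 74998031.

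Ly6c1, a marker of monocytes and endothelium, was bright in both strains. It stood at 5.67, 6.55, 6.22 and 5.69 in the NZO mice and at 3.22, 2.93, 2.997 and 3.68 in the B6 mice, in the same order. The lowest NZO mouse lay well above the highest B6 mouse, with a log2 difference of 2.82 (standard error 0.25). A further Ly6c1 probe gave 2.51, from 1.30 ± 0.17 (SD, n = 4) in NZO and -1.21 ± 0.50 in B6. Ly6g, known as a neutrophil antigen, was at 2.20 ± 0.30 (SD, n = 4) in NZO and 0.54 ± 0.24 in B6, a log2 difference of 1.66. Ly6e, which is broadly expressed and limits infection by several viruses, had the smallest difference of the called Ly6 genes, 0.95, with 7.24 ± 0.19 (SD, n = 4) in NZO and 6.30 ± 0.25 in B6.

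Transcripts known from predictions or cDNAs were called in the stretch as well. A predicted pseudogene (ENSMUST00000089689) was at 2.62, 3.11, 3.06 and 2.65 in NZO and at -0.37, 0.20, -0.12 and 0.03 in B6. The strains were far apart, with a difference of 2.93 (standard error 0.17), and the spread within each was small. Its probe shared a run of 28 bases with the Ly6g probe, 65.0% of the 60 bases matching without gaps, and their signals are not known to be separate. Among the probes of the called genes of the stretch, no other pair matched over more than 41.7% of their bases. Probes of its dim members were not compared. The cDNA BC025446 (ENSMUST00000055719) was at 4.12 ± 0.27 (SD, n = 4) in NZO and 2.41 ± 0.13 in B6, a difference of 1.71.

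At the far side of the stretch, 9030619P08Rik, a gene of unknown role, was at 3.04, 3.62, 3.53 and 2.85 in NZO 003, 007, 009 and 011. In B6 009, 010, 011 and 015 it was at 0.16, 0.02, 0.45 and 1.32, a log2 difference of 2.77 (standard error 0.31). B6 015 was the highest B6 mouse for this gene as well as for Ly6c1 and Ly6e, but remained below all NZO mice. In Ly6a, Ly6c1, the predicted pseudogene, 9030619P08Rik and the probe NAP101442-1 the same 2 NZO mice, 007 and 009, lay above the rest of their strain. For the dim NAP101442-1 the margin was slight, with NZO 007 at -3.416 and NZO 003 at -3.434. The other called genes of the stretch went otherwise. NZO 007 was the lowest of its strain for Ly6g (1.77) and BC025446 (3.73), and NZO 009 for the probe A_55_P1968673 (-3.81). For Ly6e and A_55_P2047617 a different pair of NZO mice was highest.

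The 3 dim genes of the stretch were compared through NZO alone, so that the filter left little room for another direction. The unnamed transcript read by A_55_P2047617 was at -2.37, -2.26, -1.84 and -1.51 in NZO and at -4.61, -4.79, -3.95 and -5.57 in B6, where 1 of the 4 arrays was above background. A_55_P1968673, likewise unnamed, was at -2.87, -2.73, -3.81 and -3.30 in NZO and not well above background on any B6 array. Against the lowest signal counted as above background on each B6 array, it was at least 2.12-fold higher in NZO. NAP101442-1 was at least 1.80-fold higher by the same reckoning.

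**Figure D2:**
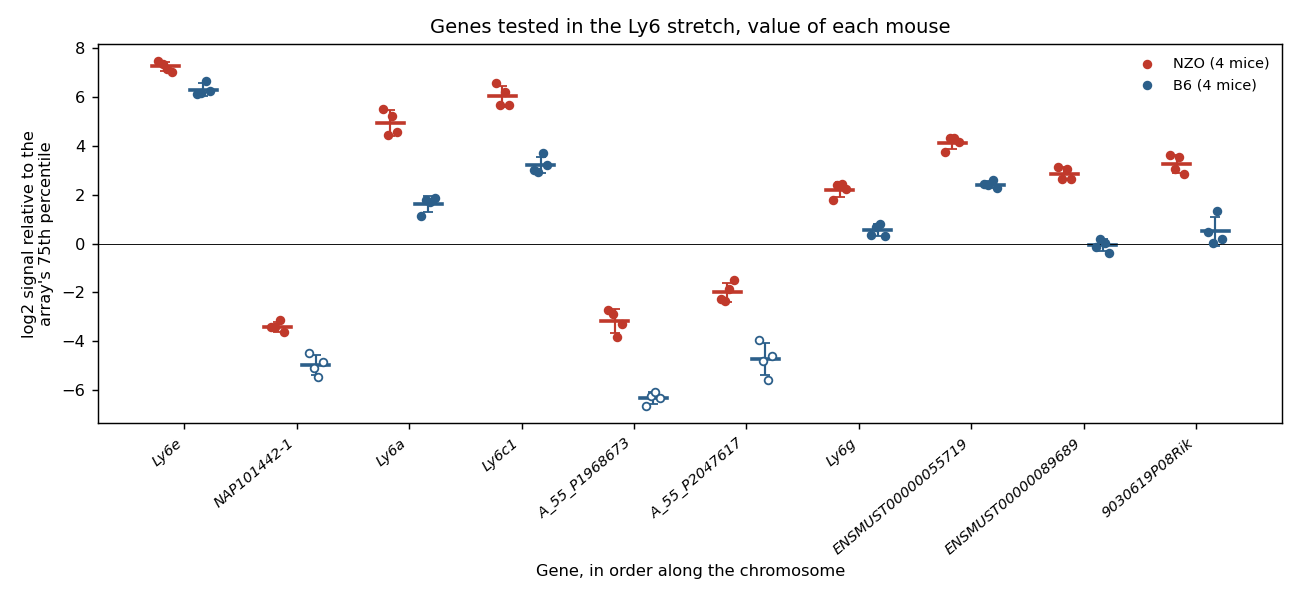
For each of the 10 genes compared in the Ly6 stretch, in order along the chromosome (horizontal axis), points give the log2 signal of each mouse relative to the 75th percentile of its array (vertical axis), red for NZO and blue for B6, with the mean and SD of 4 mice; open points mark a strain in which not all 4 arrays were above background. In every gene the 4 NZO points lie above the 4 B6 points; levels are not comparable between genes.

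Not every Ly6 relative moved. Of the 16 genes on the list of Ly6 and its relatives, 15 were members and 8 could be compared, of which 4 were called higher (Ly6a, Ly6c1, Ly6e and Ly6g) and 0 lower. Over all genes 4.45% were called higher and 4.99% lower, and the same shares stand beside the counts of the other lists below. Outside the run of called genes, Ly6d was at -0.81 in NZO and -0.73 in B6, a difference of -0.09 that was 1.27 within the 1 slide holding both strains, and Lynx1 differed by -0.41. Lypd2 gave -0.28 and Gpihbp1, the endothelial carrier of lipoprotein lipase, -0.35. Psca, Slurp1, Ly6h, Ly6i, Ly6k, Ly6f and Gml were too dim to be compared. The list's median was 0.43, against 0.03 over all genes.

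Ly6a, Ly6c1 and Ly6g are surface antigens of blood cells, so the leukocyte markers are given beside them. Of the 5 markers, 4 were above background on all arrays, 0 were called higher, and Itgax was called lower (-3.78 in NZO and -1.74 in B6, with 2 of the 4 NZO arrays above background). Ptprc, which encodes the common leukocyte antigen CD45, was at -0.98 ± 0.16 (SD, n = 4) in NZO and -0.47 ± 0.31 in B6. Cd68, a macrophage protein, was at 1.54 ± 0.17 in NZO and 1.96 ± 0.10 in B6 without overlap, and Lyz2, the lysozyme of myeloid cells, at 1.44 ± 0.22 and 1.03 ± 0.19 with overlap. Cd3e, of the T cell receptor complex, was at 2.64 ± 0.67 in NZO and 2.31 ± 0.39 in B6, and its level of 3.61 in NZO 007 was the highest of the 8 mice. The summed level of the 5 was 3.44, 4.23, 3.51 and 3.50 in NZO 003, 007, 009 and 011 and 3.74, 3.44, 3.61 and 3.58 in B6 009, 010, 011 and 015. NZO 007 was highest, and the other mice of the strains overlapped.

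Of the genes of leukocyte signalling and adhesion, 12 could be compared, of which 0 were higher in NZO and 3 were lower (Il2rb, Parvg and Lgals1), with a median of -0.34. Il2rb and Parvg were compared through B6 alone, so that the filter left little room for another direction. Il2rb, the beta chain of the receptors for interleukins 2 and 15, was at -3.56, -3.25, -3.67 and -4.24 in NZO, where 3 of the 4 arrays were above background, and at -2.59, -2.66, -2.32 and -2.01 in B6. The strains did not overlap, with a log2 difference of -1.28 (standard error 0.23). Parvg, a parvin of leukocytes that links integrins to actin, was at -4.00, -3.83, -3.66 and -5.57 in NZO and at -1.73, -2.45, -2.80 and -2.29 in B6. NZO 011 was far below the others, only 2 of the 4 NZO arrays were above background, and the difference was -1.94, which lost the call without B6 009 (-1.75).

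Lgals1 encodes galectin-1, a lectin that dampens T cell responses and is also made by fibroblasts and endothelium. Its level was 1.14, 1.45, 0.75 and 0.85 in NZO and 2.02, 1.51, 2.22 and 2.19 in B6. B6 010 came close to NZO 007, and the log2 difference was -0.94 (standard error 0.21), which lost the call when any of 5 mice was left out. The common beta chain of the cytokine receptors, Csf2rb, lay at -0.65 without being called. Its neighbour Csf2rb2 lay at 0.45 at its brighter probe and at -0.50 at the other, neither of them called. Rac2 gave -0.48, Cyth4 -0.35 and Ncf4 0.29, none of them called. Apobec3, a cytidine deaminase that restricts retroviruses, gave 0.29 at its brighter probe, which was not called, and -1.32 at the other, which was called lower when each probe was tested.

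The largest difference in a named gene was that of Apol10a, a member of the apolipoprotein L family. It stood at 2.44, 2.98, 2.83 and 2.01 in NZO 003, 007, 009 and 011 and at -2.28, -3.29, -0.73 and -0.67 in B6 009, 010, 011 and 015. NZO was tight and B6 was spread over more than 2 log2 units, and the log2 difference was 4.31 (standard error 0.58). NZO 007 and NZO 009 were the highest of their strain, as for Ly6a and Ly6c1 but not for Ly6g, where NZO 007 was the lowest. The gene lies from 77476953 to 77491069 on GRCm38.

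Near it, the probe NAP113319-1, with no gene named in the files, was at -1.13, -0.54, -0.63 and -1.48 in NZO and at -6.61, -6.46, -5.50 and -3.95 in B6. Only B6 015 was above background, and the measured log2 difference of 4.68 (standard error 0.56) rests on B6 values most of which were not well above background. NAP113319-1 was compared through NZO alone, so that the filter left little room for another direction. The other genes of the family did not follow. Of 7 compared, 1 was called higher and 0 lower, and the median was -0.47. Apol7a was at 4.98 in NZO and 5.62 in B6, a difference of -0.64, and Apol7b gave -0.63. Apol9a and Apol9b, bright in both strains, differed by 0.47 and 0.28.

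Among the genes of lipid and sterol metabolism, 14 of 16 could be compared. Of these, 1 was called higher and 2 were called lower, and the median was 0.23. Slc25a17, the carrier that brings coenzyme A, FAD and NAD into peroxisomes, where very long fatty acids are shortened, had the largest decrease of the interval. It was at 1.45, 1.23, 1.48 and 1.57 in NZO and at 4.68, 4.64, 4.86 and 4.18 in B6. Within each strain the mice were close together, and the strains lay 3.16 log2 units apart, lower in NZO (standard error 0.16), an 8.91-fold difference. It lies from 81318921 to 81360765 on GRCm38.

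Tspo, a cholesterol-binding protein of the outer mitochondrial membrane, was at 3.47, 3.63, 3.42 and 3.63 in NZO and 4.37, 4.08, 4.39 and 4.39 in B6. The difference was small and steady, at -0.77 (standard error 0.11). Pnpla5, a lipase of lipid droplets, was the lipid gene called higher. It was compared through NZO alone, so that the filter left little room for another direction. It was at -1.07, -1.93, -1.24 and -1.43 in NZO and at -2.65, -3.02, -5.39 and -3.84 in B6, with 2 of the 4 B6 arrays above background. The strains did not overlap, although B6 varied far more than NZO, and the log2 difference was 2.31 (standard error 0.55). It was called with all mice, but not when any of 4 of them was left out.

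Its neighbour Pnpla3 was read differently by its 2 probes. The brighter probe was at -0.92, -2.45, -2.03 and -1.61 in NZO and at -2.34, -2.31, -3.66 and -3.01 in B6. The strains overlapped, and the difference of 1.08 (standard error 0.40) passed the methods' thresholds but was not called. The other probe stood at -1.36 in NZO and -4.11 in B6, where 1 of the 4 arrays was above background, and was called higher when each probe was tested. Sqle, which makes the precursor of the sterol ring, was at 4.61, 4.94, 5.05 and 3.99 in NZO and at 3.15, 4.03, 3.64 and 4.41 in B6. Its strains overlapped, and the difference of 0.84 (standard error 0.32) likewise passed the methods' thresholds only.

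The remaining lipid genes were not called. Cyb5r3, a reductase used in fatty acid desaturation and cholesterol synthesis, was at 6.09 ± 0.09 (SD, n = 4) in NZO and 5.54 ± 0.15 in B6, a difference of 0.55 below the limit on its size. Trib1, a pseudokinase linked to blood lipids, differed by -0.54 and Srebf2 by 0.37, each without overlap of the strains. Dgat1 was at 1.89 in NZO and 1.87 in B6, and Rnf139 at 1.79 and 1.81. Pla2g6 (0.24), Samm50 (0.24), Mcat (0.22) and Gpihbp1 (-0.35) lay between. The steroid synthesis genes Cyp11b1 and Cyp11b2 were at background on every array.

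**Figure D3:**
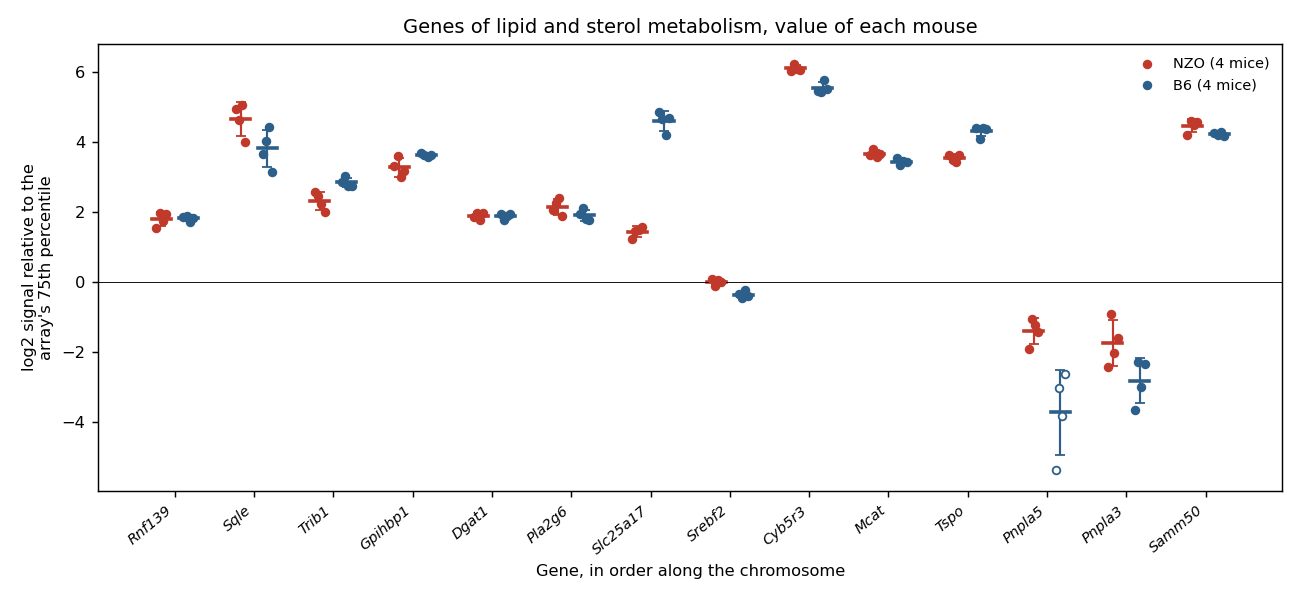
Points give the log2 signal of each mouse relative to the 75th percentile of its array (vertical axis) for the 14 genes of lipid and sterol metabolism that could be compared, in order along the chromosome (horizontal axis), red for NZO and blue for B6, with the mean and SD of 4 mice; open points mark a strain in which not all 4 arrays were above background. Slc25a17 is the gene with the widest gap, 3.16 log2 units lower in NZO, while Dgat1 and Rnf139 lie at the same height in both strains.

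Enzymes of amino acid, sulfur and vitamin metabolism were mostly level between the strains. Of 16 compared, 2 were higher and 0 lower, with a median of 0.01. Gpt, the alanine aminotransferase used as a blood marker of liver damage, was at 6.62 in NZO and 6.74 in B6, and Tst, a mitochondrial sulfur transferase, at 6.22 and 6.20. The called genes were both dim. Pdxp, the phosphatase of pyridoxal phosphate, was at -2.67 ± 0.30 (SD, n = 4) in NZO and -3.92 ± 0.53 in B6, where 3 of the 4 arrays were above background. Pdxp was thus compared through NZO alone, so that the filter left little room for another direction. Sult4a1, a sulfotransferase best known from brain, was at -0.60 ± 0.28 (SD, n = 4) in NZO and -2.60 ± 0.67 in B6, a difference of 2.001.

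The mitochondrial proteins gave 1 lower gene, Tspo, and 0 higher genes of 13. Ndufb9, a subunit of complex I, was at 7.88 in NZO and 7.70 in B6, and Cyc1 of complex III at 6.82 and 6.75. Top1mt, the mitochondrial topoisomerase, differed by 0.66, just short of the limit. None of the 21 genes of RNA processing, translation and microRNA silencing, of the 23 of ubiquitin, trafficking and cell polarity or of the 15 of signalling was called. Ago2, the slicing Argonaute protein of microRNA silencing, was at 0.60 in NZO and 0.88 in B6, and the ribosomal protein genes Rpl8 and Rpl3 differed by 0.18 and 0.26. The 3 gasdermin genes compared were not called either, with Gsdmc3 at 0.69 and Gsdmd at 0.08.

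**Figure D4:**
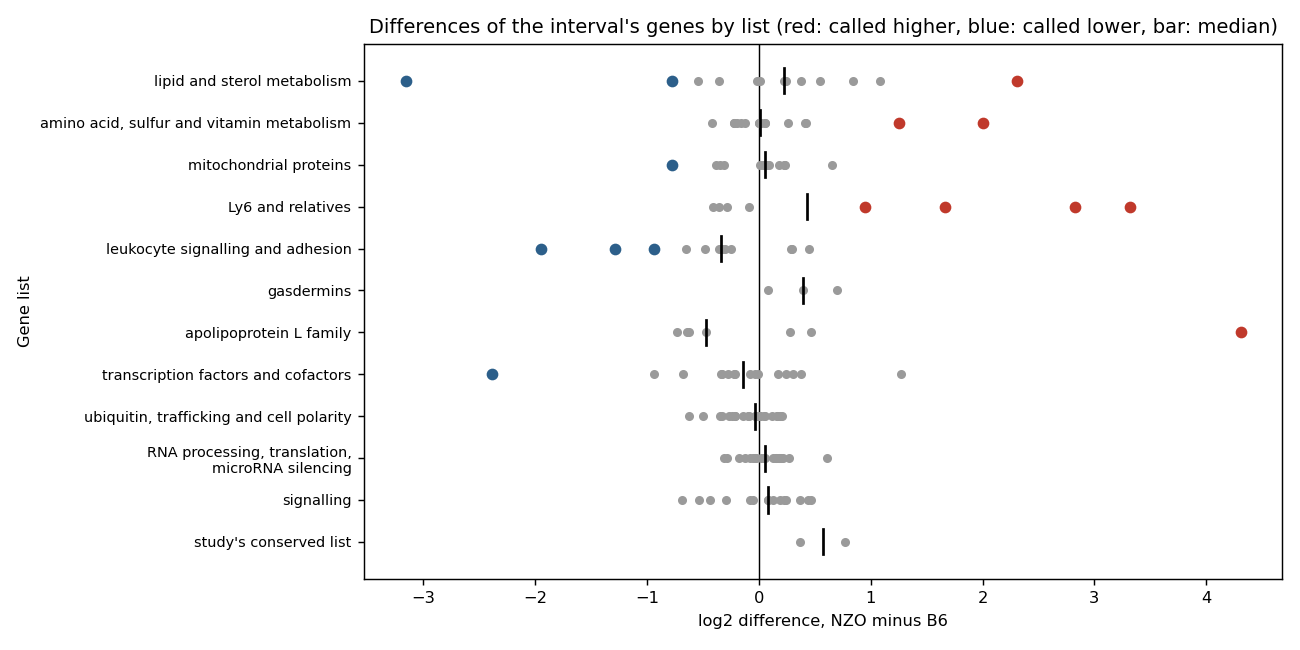
Each point is the log2 difference between NZO and B6 liver (horizontal axis) of a member that could be compared, by gene list (vertical axis); red points were called higher, blue points lower, and the black bar is the list's median. The called genes lie at the ends of lists whose medians run from -0.47 (apolipoprotein L family) to 0.57 (the study's conserved list, with 2 genes), while RNA processing, trafficking and signalling hold no coloured point.

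Of the listed transcription factors and cofactors, 16 were compared, 0 were higher and 1 was lower; the list does not hold Zfat, a zinc finger transcription factor of T cells, which was called higher at 0.76. Maff, a small Maf protein that pairs with other leucine zipper factors in stress responses, was at -4.52, -4.48, -3.72 and -6.04 in NZO and at -2.63, -1.83, -2.64 and -2.12 in B6. In NZO only 1 of the 4 arrays was above background, and the measured difference of -2.38 (standard error 0.45) rests on NZO values most of which were not well above background. Maff was compared through B6 alone, so that the filter left little room for another direction. Myc was at -0.46 ± 1.40 (SD, n = 4) in NZO and -1.73 ± 0.93 in B6, and with that spread its difference of 1.27 was not called. Its neighbour Pvt1, a long noncoding RNA, was called higher at 0.87, from -0.21 ± 0.27 in NZO and -1.08 ± 0.26 in B6, and its other probe gave 1.62.

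Recql4, a helicase of DNA replication and repair, was called lower and had 2 probes above background. It was at -3.29, -1.63, -2.87 and -2.28 in NZO and at -0.0045, -0.39, -0.34 and -0.46 in B6. NZO was the more variable strain, the groups did not overlap, and the difference was -2.22 (standard error 0.33). The other probe gave -2.31 with less spread (standard error 0.12). On one side of it, Mfsd3, a membrane transporter, was higher in NZO by 0.73. On the other lay Lrrc14, which was not called (-0.07), and then Lrrc24, a membrane protein with leucine-rich repeats, which was higher by 3.17. Lrrc24 was at -1.26, -0.74, -0.78 and -0.98 in NZO and at -3.82, -4.90, -3.41 and -4.30 in B6, where 2 of the 4 arrays were above background. Lrrc24 was compared through NZO alone, so that the filter left little room for another direction. Recql4 and Mfsd3, both above background on every array, went in opposite directions on this short stretch.

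Lower in NZO were also Bik, which promotes apoptosis by binding Bcl-2 proteins, and Cdc42ep1, an effector of the small GTPase Cdc42. Bik was at -0.44, -0.82, -0.10 and -0.55 in NZO and at 0.31, 0.82, 0.40 and 0.96 in B6, a difference of -1.10 (standard error 0.20). Cdc42ep1 was at 2.47, 2.31, 2.29 and 2.50 in NZO and at 3.58, 3.06, 3.32 and 3.23 in B6, a difference of -0.91 (standard error 0.13). Neither gene showed an overlap of the strains, and for Cdc42ep1 the NZO mice were especially close together. The predicted transcript LOC101055922 was at -3.99, -3.76, -3.56 and -4.12 in NZO and at -3.16, -0.91, 0.10 and -1.98 in B6. Its difference of -2.37 (standard error 0.61) was measured with 2 of the 4 NZO arrays above background and rested on a wide spread in B6, where B6 009 was near the NZO mice, and it lost the call when any mouse but B6 009 was left out. LOC101055922 was compared through B6 alone, so that the filter left little room for another direction. The cDNA AI790276 (-0.75) and Anxa13, a membrane-binding annexin (-0.73), completed the lower genes. The former lost the call without B6 015 (-0.59), the latter without NZO 007 (-0.64) or NZO 009 (-0.68).

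**Figure D5:**
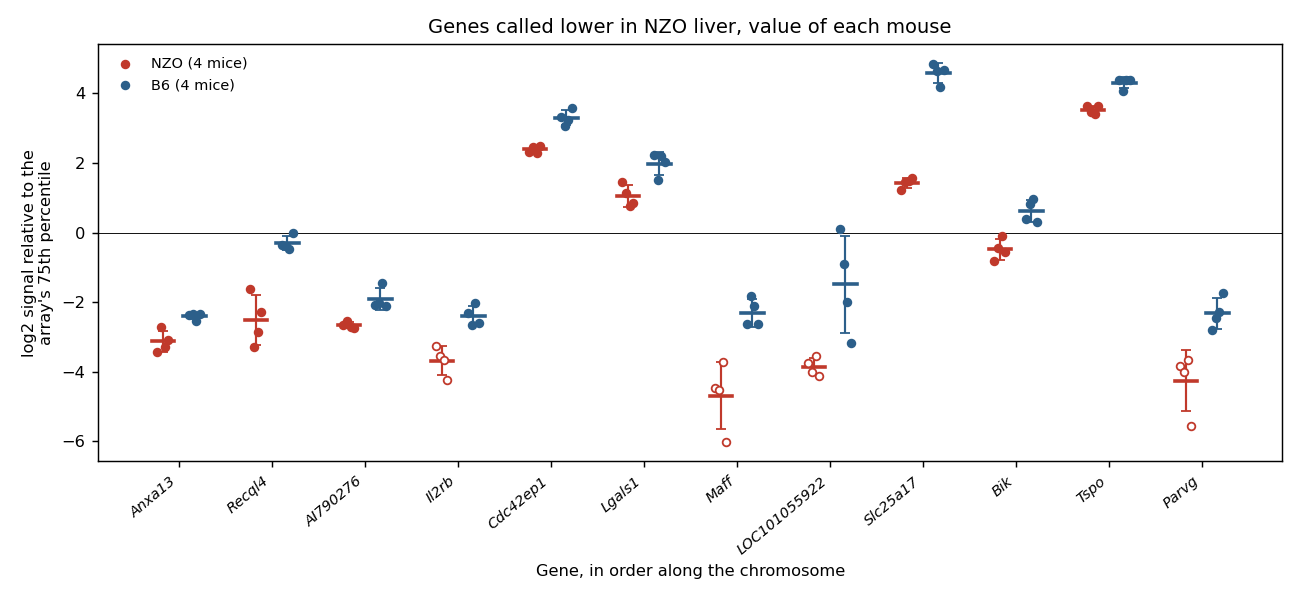
Points give the log2 signal of each mouse relative to the 75th percentile of its array (vertical axis) for the 12 genes called lower in NZO, in order along the chromosome (horizontal axis), red for NZO and blue for B6, with the mean and SD of 4 mice; open points mark a strain in which not all 4 arrays were above background. All blue points of a gene lie above its red points, with the smallest spread in Tspo and a wide B6 spread in LOC101055922.

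A1bg, which encodes a plasma glycoprotein of the immunoglobulin superfamily, was read in NZO alone. It was at -1.85, -3.25, -1.61 and -2.94 in NZO and not well above background on any B6 array, which makes it at least 3.60-fold higher in NZO. Close to it lay Lratd2, at -1.62 ± 0.13 (SD, n = 4) in NZO and -2.93 ± 0.46 in B6, and 9930014A18Rik, a noncoding gene with a difference of 1.03. Zfat gave 0.76, the cDNA AK053501 1.15 and the probe A_55_P2183518 0.78. Further along, Fam83f was at 3.14 ± 0.22 (SD, n = 4) in NZO and 1.96 ± 0.19 in B6. Syngr1, a protein of synaptic vesicles, gave 1.93 and Shisa8, of a family that modulates receptors, 2.28. Both were dim, with 2 and 1 of the 4 B6 arrays above background. Of these genes, 9930014A18Rik, A_55_P2183518, Syngr1 and Shisa8 lost the call when any of at least 4 mice was left out, and Zfat without B6 015 (0.66). A1bg, 9930014A18Rik, Syngr1 and Shisa8 were compared through NZO alone, so that the filter left little room for another direction.

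Of the genes with conserved polymorphisms in the study's list, 4 lie in the interval and 2 could be compared. The list was drawn from expression in several tissues, liver among them, so that it is not independent of these arrays. Jrk, a nuclear DNA-binding protein, was at -2.34, -2.38, -2.58 and -2.84 in NZO and at -3.25, -4.10, -2.59 and -3.25 in B6. B6 011 reached into the NZO range, and the difference of 0.77 (standard error 0.29) passed the methods' thresholds but was not called. Cacna1i, a T-type calcium channel subunit, gave 0.37 (standard error 0.38). Rhpn1 was above background on 1 B6 array and Scube1 on no array.

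The call of a gene with several probes can depend on the probe that is read. Of the members compared, 63 had more than 1 probe above background, and the 3 called ones among them, Pvt1, Ly6c1 and Recql4, went the same way at each. In Mroh1 the probes differed in call but not in direction. Its brighter probe gave -0.03 (standard error 0.17) and was not called. The other was at -3.45 in B6 and not well above background on any NZO array, and was called lower when each probe was tested. Apobec3 was called lower at its dimmer probe, where 2 of the 4 NZO arrays were above background, while its brighter one lay at 0.29. Sh3bp1, which regulates small GTPases, gave 1.08 at its brightest probe, 0.95 at another, where it was called, and 0.18 at another still. It passed the methods' thresholds only, as did, beside Pnpla3, Sqle and Jrk, Gm10866 (0.98), Cenpm (0.83), 1700029P11Rik (0.80) and Mpped1 (0.70) among the higher genes and Gm10362 (-0.96), AK041614 (-0.75) and Apol11b (-0.73) among the lower ones.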

How the data were processed

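Per the labels, liver RNA of 4 NZO and 4 B6 mice was hybridised to one-colour Agilent arrays. The authors deposited scanner output whose header names Feature Extraction 11.0.1.1 (the submitters' processing notes name 9.1), with the intensity of each spot after background subtraction within the array, and a table that equalled the raw median intensity of all 59305 spots on every array. Only the first was used in the fits reported; the table was an alternative.

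The log2 processed signal was set relative to each array's 75th percentile, outlier spots were left out, and spots of a probe were averaged. A probe was kept (27639 of 55681) when it was well above background in every mouse of NZO, of B6 or of both. A gene was read at its brightest kept probe, which gave 20134 genes, fitted with limma 3.58.1 (lmFit, eBayes) in R 4.3.3 and adjusted by Benjamini-Hochberg over all of them, after a test on simulated data. A bound ("at least N-fold") sets each dim array at the higher of its own value and the lowest signal well above background on it.

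The limits of the interval come with no named assembly and were applied to the array's mm9 positions; 324 of the 405 members matched the GRCm38.p6 gene table. The members, gene lists and tests were chosen with earlier results of these data known. Named genes were all called members, with the values of each array for the 10 largest increases and decreases, the lipid and conserved lists, the genes at the ends, those with disagreeing probes and examples of each list; further uncalled genes were picked after their values were seen. Numbers 009 and 011 occur in both strains, but deviations of same-numbered mice correlated at -0.26 and 0.01, so the numbers do not pair them. Mouse spread alone sets the errors, and 4 arrays per strain limit the precision. The comparison between strains may include technical spread, as extraction and labelling batches are not given.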

Additional observations from a re-analysis of the deposited data

Results flagged for a closer look

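In 6 of the 104 groups of 4 arrays formed by 52 genes, 1 mouse lay at a gap from its strain that chance alone gives in about 1 of 20 groups. For Ly6e, B6 015 was at 6.67, above the next B6 mouse at 6.22 and below all NZO mice. Lratd2 had a high NZO mouse, NZO 009 at -1.42, and a high B6 mouse, B6 011 at -2.24, where the next were at -1.66 and -3.11. Among the lower genes, AI790276 had its highest B6 value in B6 015, at -1.44, where the next was -2.04. Tspo was at 4.08 in B6 010 and Anxa13 at -2.53 in B6 015, below the other B6 mice. In each of these genes the strains still did not overlap.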

How the results depend on the processing

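Of the 39 called genes, 0 changed direction under any of the 21 alternatives that gave them a value; 24 had one with probes above background on all 8 arrays and 37 with the array's own gene names. This was largely fixed beforehand. The strains overlapped in none of these genes, so at the same probe leaving out a mouse cannot turn a direction. The methods' t-test reads the same difference of means. Without any single mouse 28 stayed called, 9 under every alternative but the block that gave a value, and 2, Ly6a and Slc25a17, under all. The 27 higher genes became 15 with normexp background correction, 16 with the deposited table, 16 with probes above background on all 8 arrays, 14 with the slide as a fixed term and 1 with a replicate block on mouse numbers; the 12 lower genes became 6 with the slide, 5 with the methods' t-test and 1 with the replicate block, although the numbers do not pair these mice. At the methods' thresholds the 35 higher genes became 16 with normexp and 16 with the deposited table, and the 15 lower genes 8 with normexp, 9 with probes above background on all arrays and 23 with the slide. The share called over all genes under each alternative is not given here, so these counts are not set against it. Of the 27 higher genes, 16 were above background on all 8 arrays, so the count under that filter was close to fixed. Leaving out a mouse gave 22 to 26 higher and 10 to 18 lower genes, or 29 to 36 and 13 to 21 at the methods' thresholds; the 18 came without NZO 011. The cause was not tested. Over all genes the median difference was -0.15 with the deposited table and 0.10 with the slide, against 0.03. With the slide as a term, the strain difference rests on NZO 003, B6 010 and B6 015, the mice of the 1 slide that held both strains.

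Of the 52 genes followed through the alternatives, those whose sign reversed were uncalled: Dgat1 (0.01) with normexp (-0.031), quantile normalization (-0.003498), the deposited table (-0.22), the replicate block (-0.073) and without a mouse (-0.026 to 0.055), Gpihbp1 (-0.35) with the slide (0.001289), Mcat (0.22) with the deposited table (-0.009787) and Rnf139 (-0.02) with the slide (0.17) and without a mouse (-0.076 to 0.061).

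Without some mouse 11 called genes lost the call. They were Zfat (0.66) and AI790276 (-0.59) without B6 015, Parvg (-1.75) without B6 009, Anxa13 without NZO 007 (-0.64) or NZO 009 (-0.68), and, without any of at least 4 mice each, 9930014A18Rik, A_55_P2183518, LOC101055922, Lgals1, Pnpla5, Shisa8 and Syngr1. Of these, LOC101055922 ran from -2.53 to -1.84 where the call was lost, A_55_P2183518 from 0.63 to 0.86 and Shisa8 from 1.94 to 2.46.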
